A study of Homo sapiens with 22 samples.

Results

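In the neuroblastoma cell line CHP-134, 233 of 1646 WDR5 regions lay over 1 kb from every transcription start site of the annotation set used. Of these 233, 43 had the start of another annotated transcript within 1 kb. The regions were chosen by the WDR5 peaks themselves: peaks of the 3 WDR5 libraries from DMSO-treated cells were merged where they shared 1 bp, kept where 2 or more libraries had a peak, and called distal where the centre lay more than 1 kb from every annotated transcription start site (TSS) of the basic protein-coding and long noncoding RNA (lncRNA) transcripts. The other 1413 regions, within 1 kb of a TSS, are called promoter regions. WDR5 peaks in those 3 libraries and the distance to a TSS were therefore used by the choice and are only described.

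The study mapped N-MYC and WDR5 by ChIP-seq, which sequences the DNA recovered with a protein by its antibody, in CHP-134 and IMR-32, both neuroblastoma cell lines with amplified MYCN. CHP-134 had received the solvent dimethyl sulfoxide (DMSO), at 0.005% or 0.0005% depending on the field of the labels, or a compound for 4 h, with 3 libraries per antibody and treatment. IMR-32 cells were untreated, with 2 libraries per antibody. All used a custom N-MYC serum or a commercial WDR5 antibody, and each library pooled ChIPs of the same sample. The labels name the compound in more than 1 way, so it is not identified here. The methods describe the ChIP-seq as independently repeated, but do not say whether each library came from its own culture, so p-values measure the spread between these libraries. CHP-134 was sequenced with single reads and IMR-32 with paired reads, so that cell line and sequencing cannot be told apart.

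WDR5 is a WD-repeat protein that scaffolds the methyltransferase complexes of histone H3 lysine 4 and also binds MYC proteins directly. N-MYC binds DNA together with its partner MAX, preferentially at the E-box sequence CACGTG, and drives growth genes in neuroblastoma. WDR5 is best known from promoters, whereas sites away from promoters may lie in introns, between genes or at start sites that an annotation leaves out.

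The sequences show what lies under the WDR5 summit, the highest point of the peak, at members that carry the patterns described below. All are written on the plus strand of GRCh37, which is the hg19 build of the peak lists. For the members with an E-box, its letters are in capitals, and for the others capitals mark the 11 bases centred on the summit. The lines labelled ANKRD60, HCG11 and LINC02693 are the members with the highest WDR5 rank that have both an E-box and N-MYC, LINC00368 has an E-box but no N-MYC peak in any library, EFNA3 is the member present in most peak lists, RNF220 has the highest WDR5 rank of all, and SIN3A has the highest WDR5 rank among members without N-MYC. Their positions are chr20:56784769-56784969 for ANKRD60, chr6:26520681-26520881 for HCG11, chr17:21355893-21356093 for LINC02693, chr13:111704248-111704448 for LINC00368, chr1:155053559-155053659 for EFNA3, chr1:45097756-45097856 for RNF220 and chr15:75745052-75745152 for SIN3A. The ANKRD60, HCG11 and LINC00368 members are intergenic and named by the gene of the nearest TSS, and the other 4 lie in introns of the named gene.
near ANKRD60: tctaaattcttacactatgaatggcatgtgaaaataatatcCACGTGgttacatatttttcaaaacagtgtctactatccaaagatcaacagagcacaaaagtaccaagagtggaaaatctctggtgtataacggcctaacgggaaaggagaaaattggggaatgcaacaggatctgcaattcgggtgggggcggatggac
near HCG11: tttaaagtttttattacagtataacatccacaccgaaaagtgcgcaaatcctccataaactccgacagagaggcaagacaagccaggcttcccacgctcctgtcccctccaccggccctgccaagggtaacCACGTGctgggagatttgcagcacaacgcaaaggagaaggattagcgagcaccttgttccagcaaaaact
in LINC02693: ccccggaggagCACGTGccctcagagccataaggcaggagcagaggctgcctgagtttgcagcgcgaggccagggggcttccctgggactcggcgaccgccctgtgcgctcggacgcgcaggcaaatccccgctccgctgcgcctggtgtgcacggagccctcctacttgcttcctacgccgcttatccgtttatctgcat
near LINC00368: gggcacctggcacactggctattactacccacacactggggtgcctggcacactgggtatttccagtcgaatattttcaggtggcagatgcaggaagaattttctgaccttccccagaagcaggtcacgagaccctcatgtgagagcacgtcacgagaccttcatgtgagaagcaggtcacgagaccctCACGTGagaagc
in EFNA3: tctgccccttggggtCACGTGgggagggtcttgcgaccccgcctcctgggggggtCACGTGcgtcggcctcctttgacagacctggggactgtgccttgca
in RNF220: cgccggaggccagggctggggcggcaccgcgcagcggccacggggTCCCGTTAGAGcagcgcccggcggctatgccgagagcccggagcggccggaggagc
in SIN3A: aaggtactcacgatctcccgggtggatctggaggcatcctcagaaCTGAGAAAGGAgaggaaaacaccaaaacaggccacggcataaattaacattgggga
The EFNA3 window holds the E-box at 2 places, whereas the RNF220 and SIN3A windows hold none.

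Peak numbers set how much each list can show. The DMSO WDR5 lists held 4891, 1758 and 1671 peaks, the compound WDR5 lists 5973, 15 and 401, and the IMR-32 WDR5 lists 1693 and 1258. The N-MYC lists held 15286, 9125 and 12283 peaks after DMSO, 11249, 2964 and 12313 after the compound, and 8286 and 5242 in IMR-32. The second compound library of each antibody stands apart with few peaks. The lists hold no read counts, so depth is unknown, and a missing peak means only that none was called at the authors' q-value of 0.05.

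Most distal WDR5 regions lay within genes, above all in introns. By its centre, 120 of the 233 regions (51.5%) fell in introns, 85 (36.5%) between genes and 28 in exons, of which 17 were coding. Promoter regions were at exons in 49.3%, at introns in 33.5% and between genes in 17.2%. The median distance to the nearest TSS was 11924 bp, from 1012 to 197819 bp. There were 41 regions at 1 to 2 kb, 65 at 2 to 10 kb, 98 at 10 to 50 kb and 29 beyond 50 kb, and 135 lay downstream of the TSS against 98 upstream.

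Some of the regions sit at start sites outside the annotation set that the choice used. Within 1 kb of 43 of the 233 was the start of another annotated transcript, and for 32 of these it belonged to a protein-coding gene. The RNF220 member lay 55 bp from the start of such an RNF220 transcript, and a member between genes on chromosome 19 lay 8 bp from the start of the transcribed pseudogene C19orf48P. The 43 had a median GC content of 67.7% around the summit against 59.7% for the 190 without any TSS within 1 kb. N-MYC was present on average at 70.1% of the 43 and 63.7% of the 190, a difference of 6.37 percentage points ± 6.07 (SD over 8 libraries) that was positive in 7 of 8 libraries but did not pass after correction (exact sign-flip permutation test, two-sided, p = 0.0234, adjusted p = 0.0703). This comparison was added after the values were seen.

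Few distal regions shared a gene with a WDR5 promoter region, at a share close to that of genes in general. The gene of the nearest TSS also had a WDR5 promoter region for 11 members (4.72%), and of the 148 members in a gene, 8 (5.41%) lay in a gene whose own promoter was a WDR5 region. Of all 38820 genes with a TSS in the set used, 1399 (3.60%) had such a promoter region. The median distance to the nearest WDR5 promoter region was 415 kb, and 4 members were within 10 kb of one. Only 4 genes held 2 members, namely MSRA, PIEZO1, ZNF423 and the lncRNA gene ENSG00000287291.

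The gene groups described here held 0 distal members. These groups are a small part of the 38820 genes with a TSS. Few members would be counted in any case, so the counts of 0 are not read as a result. Of the WDR5 complex genes (RBBP5, ASH2L, the KMT2 family and others), 0 had a distal member in or nearest to them, and 0 had a promoter region. The same held for cytosolic ribosomal protein genes and small nucleolar RNA host genes, at 0 members each, although 53 promoter regions (3.75%) belonged to the former and 8 to the latter.

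In sequence, distal regions were less CpG-rich than promoter regions. Within 100 bp of the summit the median GC content was 61.7% at distal and 66.7% at promoter regions, against 48.0% and 43.8% in windows 2 kb to either side. The median ratio of observed to expected CpG was 0.62 against 0.83. A GC content of at least 50% together with a ratio of at least 0.6 was reached by 117 members (50.2%) and by 86.5% of promoter regions. Few members were repeats: less than 50% of the 31-base words around the summit were unique in the genome at 6 members (2.58%) and at 0.566% of promoter regions. These are descriptions of regions, which are not replicates, and have no test.

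WDR5 enrichment at distal regions ranked below that at promoter regions, described here because these values made the choice. For each peak, the authors' fold enrichment over the local background was turned into a percentile within its list, from 0 for the weakest to 100 for the strongest, since folds are not on 1 scale between lists. In the DMSO libraries 225, 181 and 153 of the members were listed. Their median percentiles were 61.5, 43.7 and 46.0, against 74.1, 59.4 and 60.3 for promoter regions. The median folds were 4.67, 4.81 and 4.81 against 5.21, 5.43 and 5.42. All 3 libraries listed 93 members (39.9%), and 48.1% of promoter regions. The mean WDR5 percentile of a region, used below as its WDR5 rank, was taken over the DMSO libraries that listed it. A library without a peak therefore did not lower it. The lists also differ in peak number, so this rank depends in part on which libraries listed a region.

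**Figure D1:**
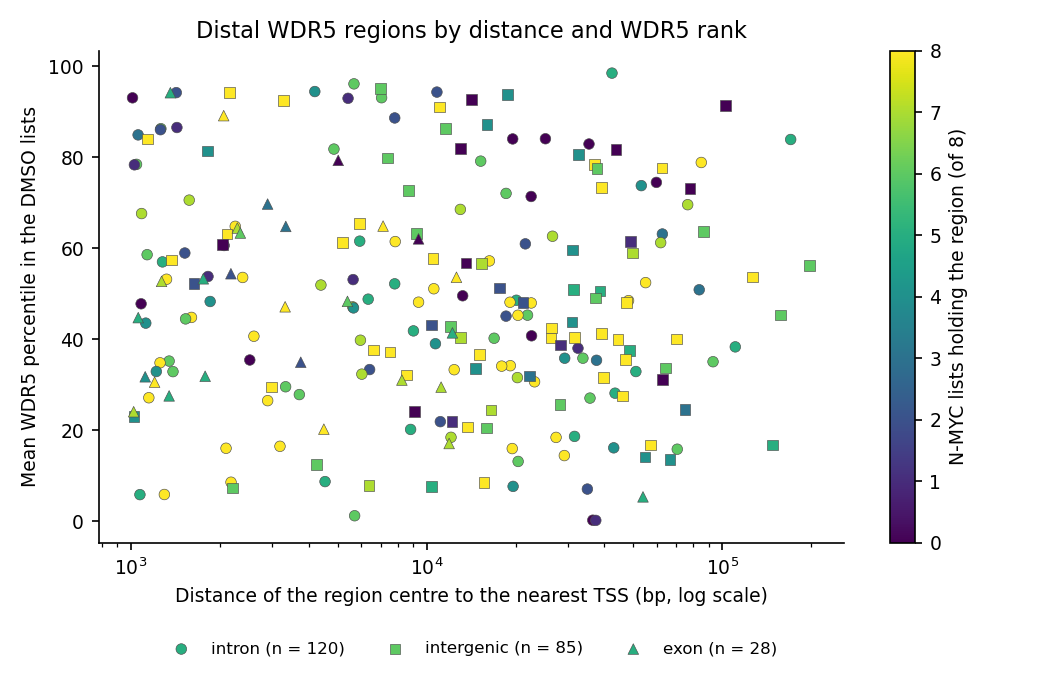
Each point is 1 of the 233 distal WDR5 regions, placed by the distance of its centre to the nearest TSS (bp, log scale) and by its mean WDR5 percentile in the DMSO lists, with shape for its place and colour for the number of the 8 N-MYC lists that hold it. Members of high WDR5 percentile occur from 1 kb to beyond 100 kb, and dark points without N-MYC are more frequent in the upper part, with 14 of 22 among the 78 highest.

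The strongest distal member lay in an intron of RNF220, a ubiquitin ligase gene, at chr1:45096993-45098428. The nearest TSS used by the choice, that of TMEM53, was 42404 bp away. The WDR5 folds of the member were 54.1, 64.0 and 46.0 in the DMSO libraries. They were 35.4 and 46.1 in IMR-32 and 7.08 and 5.36 in compound libraries 1 and 3, with no peak in compound library 2. Within its own list, the peak stood at a percentile of 99.4, 98.9 and 97.1 after DMSO, 91.1 and 90.8 in IMR-32, and 98.5 and 64.5 in compound libraries 1 and 3. The member thus ranked near the top of every WDR5 list that held it except compound library 3. Its N-MYC percentiles were 97.9, 95.5 and 85.6 after DMSO. They were 2.28 in compound library 1 and 21.6 in IMR-32 library 1, with no peak in the other N-MYC lists.

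The next members were near genes of varied function. An intron of PRMT2, which encodes an arginine methyltransferase, had WDR5 folds of 25.2, 22.3 and 40.8 after DMSO and of 55.3 and 40.7 in IMR-32, and no compound list held it. A region 6996 bp upstream of BRSK2, a kinase of neuronal polarity, had 17.3, 17.9 and 26.7 after DMSO and 81.3 and 87.3 in IMR-32, again with none after the compound. An intron of GBX2-AS1, 10841 bp upstream of the homeobox gene GBX2, had 11.4, 21.0 and 15.8 after DMSO, 26.5 and 26.7 in IMR-32, and 3.07 in compound library 1. All of these members ranked high by WDR5 in both cell lines.

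The 10 strongest members were chosen by their mean percentile among those in all 3 DMSO libraries. Each IMR-32 WDR5 library held 9 of them. These libraries listed 30.04% and 24.9% of all distal regions and 49.3% and 43.7% of promoter regions. The compound WDR5 libraries held 3, 0 and 1 of the 10. They listed 39.5%, 0% and 5.15% of all distal regions and 48.2%, 0.991% and 15.004% of promoter regions. Compound library 1 had more peaks than any DMSO library. The 10 were picked for their high DMSO percentiles, and the part of this choice in the counts was not tested. The member absent from IMR-32 lay in AIRN, the antisense RNA of an imprinted locus, with folds of 21.8, 17.4 and 12.7 after DMSO.

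**Figure D2:**
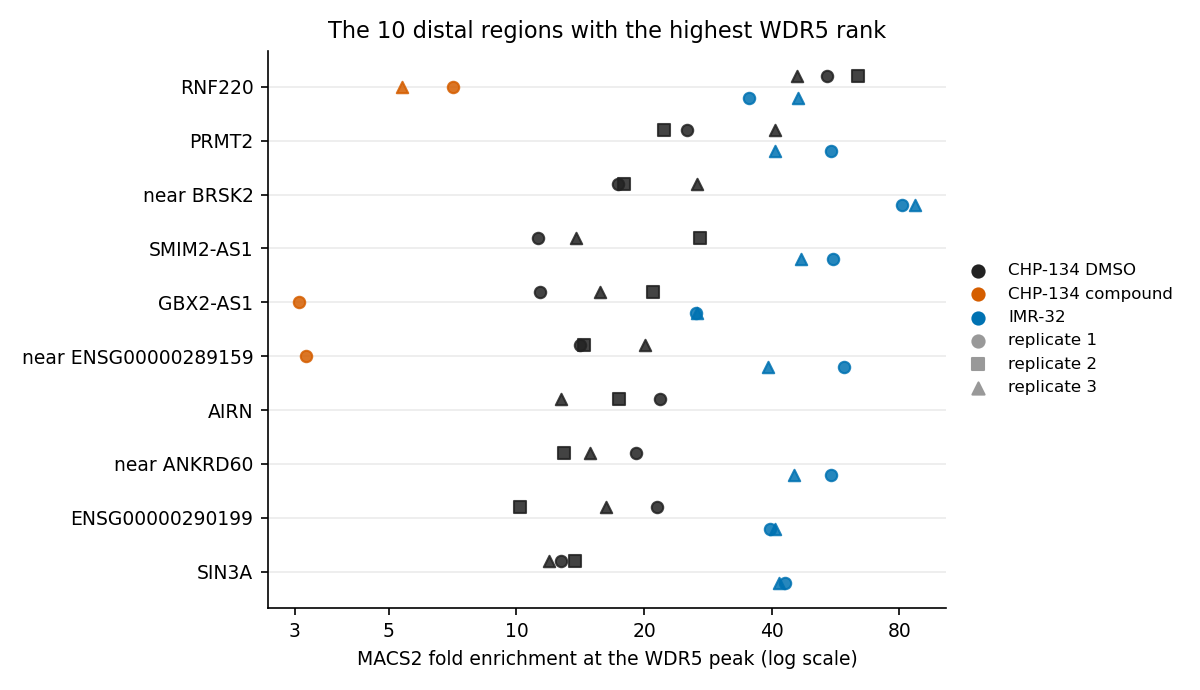
Authors' fold enrichment (log scale) of the WDR5 peak at the 10 distal regions with the highest WDR5 percentile, with colour for cell line and treatment and shape for replicate. A missing symbol means no peak: the IMR-32 libraries hold 9 of 10, the compound libraries 3, 0 and 1, and RNF220 is highest after DMSO at 46.0 to 64.0.

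Across all members, the IMR-32 WDR5 lists held more of the members with a high WDR5 rank, whereas the compound lists differed among themselves. The 78 members of highest mean percentile were listed at 50.0% and 46.2% in the IMR-32 WDR5 libraries, the middle 78 at 26.9% and 19.2%, and the lowest 77 at 13.0% and 9.09%. In compound library 1 the shares were 32.1%, 41.0% and 45.5%. In compound library 3 they were 8.97%, 3.85% and 2.60%, from 7, 3 and 2 members, and library 2 listed 0. The strongest members were thus those most often found in the other cell line and, in the compound list with most peaks, those least often found. The IMR-32 order was also seen at promoter regions. When distal and promoter regions were ranked together and split likewise, IMR-32 promoter shares were 74.2% and 70.2% in the highest group. They were 41.3% and 33.3% in the middle and 30.1% and 25.2% in the lowest. In compound library 1 promoter shares were 52.2%, 48.7% and 43.1% from highest to lowest, and distal shares 22.6%, 46.8% and 42.7%. There only distal shares were lowest in the highest group. These splits were made after values were seen and were not tested.

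**Figure D3:**
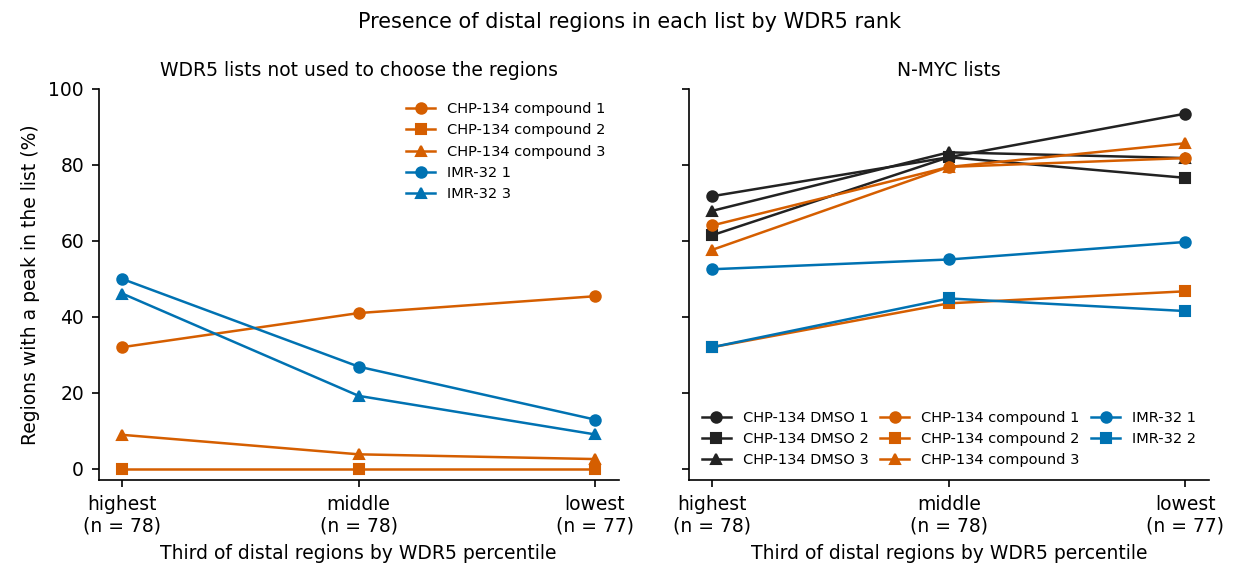
Share of distal regions (%) with a peak in each list for the 78 highest, 78 middle and 77 lowest members by mean WDR5 percentile after DMSO, with 1 line per library. IMR-32 WDR5 shares are highest in the highest group (50.0% and 46.2%), whereas compound WDR5 library 1 and all 8 N-MYC libraries are lowest there.

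Distal regions were also less often found than promoter regions in the WDR5 lists that the choice did not use. The shares at distal against promoter regions were 39.5% against 48.2%, 0% against 0.991% and 5.15% against 15.004% in the compound libraries, and 30.04% against 49.3% and 24.9% against 43.7% in IMR-32. The difference was −11.5 percentage points ± 7.66 (SD, n = 5) and negative in 5 of 5 libraries. Its exact sign-flip permutation p of 0.063 (two-sided, adjusted p = 0.107) is the smallest that 5 libraries allow. With equal numbers of the strongest peaks from each list, which the list of 15 peaks sets to 15, the difference was −1.02.

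A total of 56 members (24.03%) were in both IMR-32 WDR5 lists, against 37.8% of all WDR5 regions and 40.1% of promoter regions. The members that IMR-32 did list ranked high there: their median percentiles were 81.8 and 78.4 against 72.7 and 68.8 at promoter regions. No member was in all 8 WDR5 lists, since compound library 2, with 15 peaks, held no member.

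N-MYC was present at most distal WDR5 regions, but at fewer than at promoter regions in every library. After DMSO an N-MYC peak overlapped 82.4%, 73.4% and 77.7% of distal and 91.7%, 79.6% and 86.4% of promoter regions. After the compound the shares were 75.1%, 40.8% and 74.2% against 79.8%, 42.7% and 81.5%. In IMR-32 they were 55.8% and 39.5% against 67.4% and 55.1%. The difference was −8.17 percentage points ± 4.23 (SD, n = 8), with the distal share lower in 8 of 8 libraries. The exact sign-flip permutation p was 0.0078, the smallest that 8 libraries allow, with an adjusted p of 0.0313 over 12 tests. All tests over 8 libraries count each library as independent. DMSO and compound libraries of the same number were taken as pairs, so these p-values may be too small. Counting each pair once would raise the smallest p that can be reached. The 3 DMSO libraries alone gave −8.09 but cannot reach a p below 0.25.

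**Figure D4:**
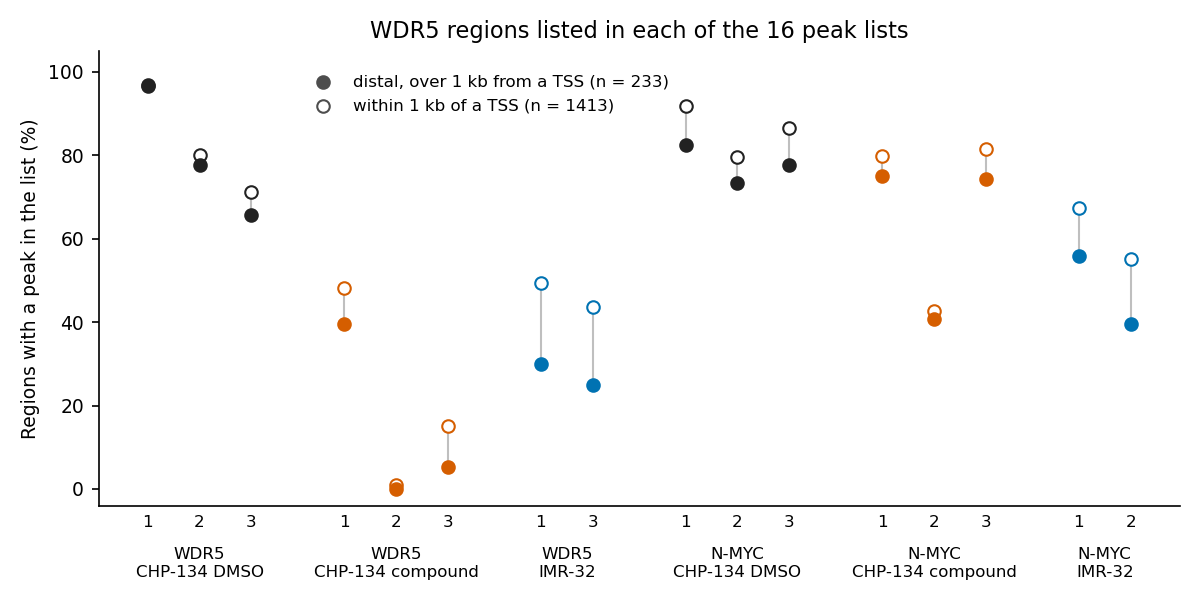
Share of distal (filled, n = 233) and promoter (open, n = 1413) WDR5 regions with a peak in each of the 16 lists (%), by antibody, cell line, treatment and replicate number. The filled point is below the open one in all 8 N-MYC lists and in all 5 WDR5 lists outside the DMSO group. The DMSO WDR5 lists made the choice.

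The deficit was widest at the regions with the strongest WDR5. When all 1646 regions were split into 3 groups of equal size by mean WDR5 percentile, the N-MYC share at distal regions averaged 50.5% in the highest group, against 69.9% at promoter regions (difference −19.4 ± 6.64, SD over 8 libraries, 53 distal and 496 promoter regions, lower in 8 of 8). The difference was −8.71 ± 5.07 in the middle group (8 of 8) and −3.23 ± 2.46 in the lowest (7 of 8). Distal members were unevenly spread over these groups, with 22.7%, 33.0% and 44.2% of them in the highest, middle and lowest. The split was chosen after values were seen and has no test.

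Where N-MYC was present, no difference in its rank between both kinds of region was detected over the 8 libraries. The median N-MYC percentile at distal regions averaged 71.9 over the 8 libraries and that at promoter regions 72.8, a difference of −0.903 ± 4.07 (SD, n = 8) that was negative in 5 of 8 libraries (exact permutation test, two-sided, p = 0.555, adjusted p = 0.555). In the 3 DMSO libraries alone the difference was −4.41 and negative in 3 of 3, where the exact permutation p cannot go below 0.25. The N-MYC summit lay nearer to the WDR5 summit at distal regions, where the library medians averaged 88.8 bp against 115.6 bp. The difference of −26.8 bp ± 8.15 was negative in 8 of 8 libraries (exact permutation p = 0.0078, adjusted p = 0.0313). With regions of all 3 DMSO WDR5 libraries only, it was −12.0 bp and did not pass (exact permutation p = 0.148). With N-MYC summits inside the region it was −18.2 bp (exact permutation p = 0.0078). Distal regions were narrower, at a median width of 620 bp against 699 bp, and the part of width was not tested.

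Counted by region, 186 members (79.8%) had N-MYC in 2 or more of the 3 DMSO lists, against 86.9% of all WDR5 regions, and 154 had it in all 3. All 8 N-MYC lists held 66 members (28.3%), near the 31.5% of all regions. No N-MYC list held 22 members (9.44%), against 4.86% of all regions. Within the distal set N-MYC thus ranged from complete presence in both lines and treatments to none.

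N-MYC was listed at fewer distal regions after the compound than after DMSO on average, but the difference did not pass the test. The share averaged 63.4% ± 19.6 (SD, n = 3) after the compound and 77.8% ± 4.51 (n = 3) after DMSO. The difference was −14.4 points (exact permutation test, two-sided, p = 0.3, adjusted p = 0.36), where 3 libraries against 3 cannot go below 0.1. Compound library 2, with 2964 peaks, weighs on its size. Without it the difference was −3.15, and with equal numbers of strongest peaks in each list it turned to 1.57 (exact permutation p = 0.6). Only 1 member had N-MYC in all 3 DMSO lists and no compound list, or 0.429%, against 1.82% of all WDR5 regions. The gap between distal and promoter shares was −4.61 points after the compound and −8.09 after DMSO, a difference of 3.48 (exact permutation p = 0.2, adjusted p = 0.267). Paired by replicate number, the share was lower after the compound in 3 of 3 pairs and the gap smaller in 3 of 3, each with an exact sign-flip permutation p of 0.25, the smallest that 3 pairs allow.

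In IMR-32, N-MYC was at 47.6% ± 11.5 (SD, n = 2) of the distal regions, against 77.8% in CHP-134 after DMSO (difference −30.2 points). The libraries of both lines did not overlap, and the exact permutation p of 0.1 (two-sided, adjusted p = 0.15) is the smallest this design allows. At promoter regions the share averaged 61.3% in IMR-32 and 85.9% in CHP-134 after DMSO, again without overlap, so the lower share was not particular to distal regions. Both kinds of region were chosen by WDR5 peaks of CHP-134 after DMSO. The part of this choice in the difference was not tested. N-MYC was in all 3 DMSO lists and both IMR-32 lists at 80 members (34.3%), and at 47.8% of promoter regions. For 42 members (18.03%) it was in all 3 DMSO lists and neither IMR-32 list, against 13.02% of promoter regions. With equal numbers of strongest peaks from each N-MYC list the difference between the lines was −5.15.

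An E-box within 100 bp of the WDR5 summit was found at 59 members (25.3%), against 21.9% of all WDR5 regions and 21.3% of promoter regions. With the summits of single DMSO libraries the share was 24.7% ± 1.83 (SD, n = 3) at distal and 20.9% ± 0.736 at promoter regions. Windows of the same length 2 kb away held it in 0.858% and 1.49%. The E-box lay at a median of 41.5 bp from the summit and within 50 bp at 37 members, and 12 members held it more than once. The letters CACGTG read the same on both strands. With other windows the share of members was 15.5% within 50 bp and 37.3% within 250 bp of the summit.

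E-boxes were more frequent between genes than in introns, at 36.5% of 85 and 18.3% of 120 members. Of 3 related sequences, CATGTG was found at 16.7% of members and 6.16% of promoter regions, beside 11.8% and 9.55% in windows 2 kb away. CAGCTG was found at 17.2% and 10.9%, beside 8.58% and 7.01% away. CACGCG was found at 13.7% and 18.3%, beside 1.72% and 1.10% away. The E-box or one of these sequences other than CAGCTG was held by 107 members (45.9%) and by 38.7% of promoter regions. These shares are over regions and have no test.

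Motifs of other factors, searched on both strands, were less frequent. The core CTCF letters AGGGGGC were in 11.6% of members and 9.77% of promoter regions, beside 3.22% and 2.44% in windows 2 kb away. The ETS letters CCGGAAG were in 5.15% and 7.57%, beside 1.72% and 1.24% away. The YY1 letters AAGATGGC were in 0.858% and 3.04%, beside 0.429% and 0.708% away. The CTCF and ETS letters were thus more frequent under the summits than beside them, while only 2 members held the YY1 letters. The AP-1 letters TGANTCA were in 3.43% of members, below their 5.58% in windows 2 kb away. The GATA letters AGATAA were in 4.29% of members, below their 9.87% in such windows. The NRF1 letters GCGCATGCG were in 4 members. A match is only a match of letters within 100 bp of the summit. The windows 2 kb away, here and for the E-box sequences, were not matched for GC content. Their median was 48.0% for members, against 61.7% around the summits.

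N-MYC was present more often at distal WDR5 regions with an E-box than at those without. With an E-box the shares were 94.9%, 88.1% and 96.6% after DMSO, 86.4%, 71.2% and 93.2% after the compound, and 78.0% and 61.0% in IMR-32. Without it they were 78.2%, 68.4% and 71.3%, then 71.3%, 30.5% and 67.8%, then 48.3% and 32.2%. The difference was 25.2 percentage points ± 8.25 (SD, n = 8), in the same direction in 8 of 8 libraries (exact sign-flip permutation test, two-sided, p = 0.0078, adjusted p = 0.0313). N-MYC was in all 3 DMSO lists at 52 of the 59 members with an E-box (88.1%) and at 102 of the 174 without (58.6%). Where N-MYC was present, its median percentile averaged 86.9 ± 6.84 (SD over 8 libraries) with an E-box and 62.3 ± 5.11 without, which was not tested.

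**Figure D5:**
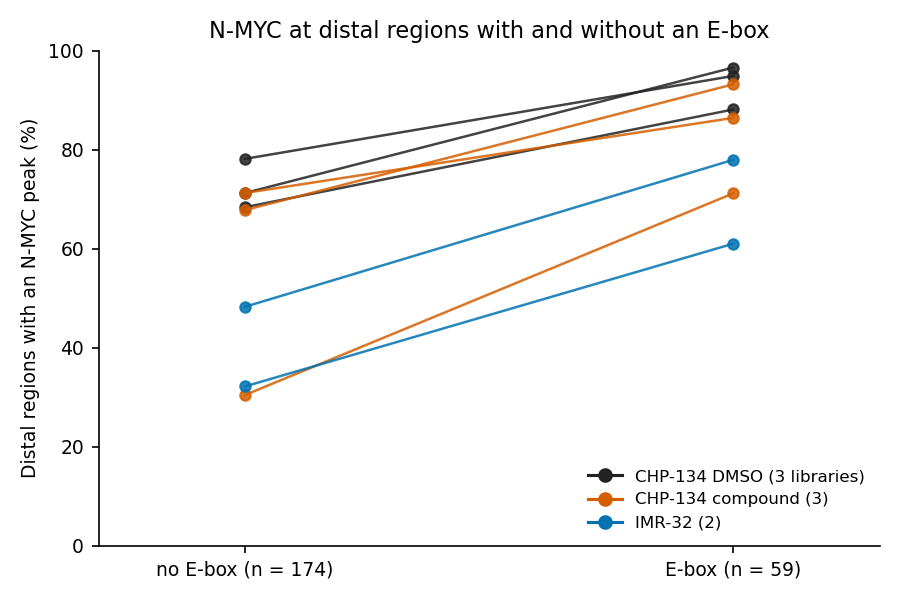
Share of distal WDR5 regions with an N-MYC peak (%) among the 174 without and the 59 with an E-box within 100 bp of the WDR5 summit, 1 line per N-MYC library. All 8 lines go up, from 30.5% to 78.2% without an E-box to 61.0% to 96.6% with one.

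The E-box difference was seen in introns and between genes alike. In introns N-MYC was at 88.6% ± 11.4 (SD over 8 libraries) of the 22 members with an E-box and 56.3% ± 19.4 of the 98 without. Between genes it was at 80.2% ± 13.1 of 31 and 60.6% ± 15.98 of 54. WDR5 itself ranked lower at members with an E-box, with a median mean percentile of 41.3 against 48.1.

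Intronic members as a whole had N-MYC less often than intergenic ones, 62.2% against 67.8% on average. The difference of −5.61 ± 5.03 (SD, n = 8) was negative in 7 of 8 libraries but did not pass after correction (exact permutation p = 0.0313, adjusted p = 0.075). It turned to 0.65 without the third DMSO WDR5 library. Members over 10 kb from a TSS had N-MYC at 63.4% against 66.6% for those at 1 to 10 kb (difference −3.24 ± 3.67, negative in 6 of 8 libraries, exact permutation p = 0.0469, adjusted p = 0.0938).

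Among the members with an E-box, the one with the highest WDR5 percentile lay 18828 bp from ANKRD60, at chr20:56784482-56785279. Its WDR5 folds were 19.1, 12.9 and 14.9 after DMSO and 55.2 and 45.1 in IMR-32. N-MYC folds there were 5.51, 3.48 and 3.41 after DMSO and 2.92 in compound library 1, with no peak in the other 4. The HCG11 member showed the reverse order, with WDR5 peaks in DMSO libraries 1 and 3 only (7.06 and 6.44) and N-MYC in all 8 lists, at 9.85, 7.003 and 11.6 after DMSO and 7.61 and 6.77 in IMR-32. The LINC00368 member had its E-box 91.5 bp from the summit, WDR5 folds of 5.77 and 6.99 and no other peak.

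The member in most lists was an intron of EFNA3, which encodes an ephrin ligand, at chr1:155053312-155053819 and 2253 bp downstream of the TSS. It was in 15 of 16 lists, and only compound WDR5 library 2, with 15 peaks, lacked it. WDR5 folds were 4.78, 5.13 and 6.49 after DMSO, 7.61 and 6.09 after the compound, and 13.4 and 10.6 in IMR-32. N-MYC folds were 6.16, 5.73 and 9.87 after DMSO, 3.48, 4.31 and 9.42 after the compound, and 11.9 and 12.1 in IMR-32. An E-box lay 7.5 bp from its summit. By list, members ranged from 2 to 15 with a median of 9. No member was in all 16, since compound WDR5 library 2 held no member, and 8 promoter regions were.

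A further 6 members were in 14 lists. They included a region 26479 bp upstream of HLF, which encodes a bZIP transcription factor, with the E-box 4.5 bp from the summit. Its N-MYC folds were 12.1, 8.64 and 6.80 after DMSO, 8.04, 5.83 and 7.21 after the compound and 8.82 and 8.90 in IMR-32, whereas its WDR5 folds were 5.27, 4.90 and 3.20 after DMSO. An exon of SPEN-AS1 near SPEN, which encodes a transcriptional repressor, had N-MYC folds of 11.7, 8.28 and 7.23 after DMSO and 4.23 and 6.19 in IMR-32. The exonic member in SOX12, a SOX-family transcription factor gene, was in 13 lists, with WDR5 folds of 9.09, 9.43 and 8.15 after DMSO and 18.3 and 14.4 in IMR-32.

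Of the 22 members without N-MYC, 14 were among the 78 with the highest WDR5 percentile, and 11 of these 14 were in an IMR-32 WDR5 list. The 22 had a median mean WDR5 percentile of 72.2 against 45.2 for the 211 with N-MYC. Their median GC content was 54.7% against 62.7%, and 2 of them (9.09%) had an E-box against 27.0%. Less than 50% of the 31-base words were unique at 3 of the 22 (13.6%) and at 3 of the 211 (1.42%). IMR-32 WDR5 libraries held 16 and 15 of the 22 (72.7% and 68.2%) and 25.6% and 20.4% of the 211. The compound WDR5 libraries held 4, 0 and 0 of the 22 and 41.7%, 0% and 5.69% of the 211. Both IMR-32 libraries were thus higher and no compound library was. Over the 5 libraries the difference was 13.1 points ± 32.5 (SD), positive in 2 of 5, in a comparison added after the values were seen (exact permutation p = 0.5, adjusted p = 0.545).

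SIN3A, the scaffold gene of a histone deacetylase complex, held the strongest of these members in an intron at chr15:75744494-75745704, 1012 bp from the TSS and so just past the limit. Its WDR5 folds were 12.7, 13.8 and 11.95 after DMSO and 43.1 and 41.7 in IMR-32. A region between genes at chr21:47442405-47443199 had 15.1, 12.2 and 10.7 after DMSO and 10.5 and 18.3 in IMR-32. Introns of SRGAP3 and of TCAF1, a TRP channel partner, had 5.55, 9.98 and 7.73 and 9.38, 13.5 and 5.67 after DMSO. In IMR-32 the SRGAP3 member had 4.94 and 3.896 and the TCAF1 member 23.3 and 21.0, and the latter lay 321 bp from the start of another TCAF1 transcript. No compound list held any of the 4.

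Another strong member without N-MYC was in no IMR-32 list. It lay between genes near GOLGA6L9, at chr15:82824699-82825048, with WDR5 folds of 10.2, 11.2 and 9.24 after DMSO, and no other list held it. Only 16.4% of its 31-base words were unique in the genome, so that its peak cannot be placed with certainty.

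A larger share of distal than of promoter regions lay on the long arm of chromosome 17, and members there ranked low, in a comparison of regions without a test. The arm held 27 members (11.6%) and 7.71% of promoter regions. The median mean WDR5 percentile was 24.4 at these members and 29.5 at promoter regions of the arm, against 47.8 for all distal and 56.9 for all promoter regions. All WDR5 peaks of the arm had median percentiles of 20.7, 23.6 and 16.7 in the DMSO lists. On chromosome 2, a pair of neighbouring members in ENSG00000287291, at chr2:15084079-15084513 and chr2:15084918-15085407, had the lowest percentiles of all, 0.192 and 0.15, with folds of 1.33 to 1.504 after DMSO. Of their 31-base words, 22.8% and 84.8% were unique in the genome, so the peak of the first cannot be placed with certainty. The copy number of these places was not measured, and its part in these values was not tested.

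The farthest members from any TSS were at 197819 bp near ENSG00000277651, at 170588 bp in COL25A1, a collagen gene, and at 157585 bp near ENSG00000286189. Their N-MYC folds after DMSO were 8.26, 4.91 and 8.02, then 11.95, 5.70 and 7.67, then 6.80, 8.11 and 4.92. Their WDR5 was listed in 2 DMSO libraries each, with folds of 4.04 to 8.75. N-MYC was thus called in every DMSO library at all 3.

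Around the limit of 1 kb, members just outside were at SIN3A (1012 bp), TMEM102 (1021 bp), KCNH2 (1025 bp) and the locus of HOXC4 and HOXC6 (1027 bp). Their mean WDR5 percentiles were 93.0, 24.04, 22.9 and 78.3. The WDR5 regions just inside were at PLEC (987 bp), POU3F1 (977 bp), TRIM71 (975 bp), HOXD3 (963 bp) and PSD3 (942 bp), with 32.3, 12.3, 50.2, 70.5 and 92.2. The values on both sides of the limit overlap.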

How the data were processed

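N-MYC and WDR5 ChIP-seq peak lists of 16 libraries were used, and 6 IgG libraries have no list here. The authors removed adapters with Cutadapt, aligned reads to hg19 with Bowtie2 and called peaks in each library with MACS2 at a q-value of 0.05. Versions and the control library are not given in the sources used here. The deposited lists give, per peak, a position, the fold (ratio) over the local background, a score, and −log10 p-values and q-values. The authors' score and p-value were not used, the −log10 q-value chose summits, and the fold was ranked within its list. Depth is unknown.

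TSSs (84648 gene and position pairs) came from GENCODE 44 mapped to GRCh37, and all peaks lay within its chromosomes. A region counts as present in a list where a peak overlaps it by 1 bp. Shares were compared within libraries by exact sign-flip permutation and between groups by exact permutation over libraries, two-sided, with Benjamini-Hochberg adjustment over 12 tests (Python 3.11.15, numpy 2.4.6, pysam 0.24.0). Merging, overlap, motif and permutation steps were tested on simulated data. Replicate numbers of compound and DMSO N-MYC libraries were checked for pairing: deviations of presence from the group mean over the 233 members correlated by 0.192, 0.168 and 0.251 within numbers and by −0.154 to −0.0436 across them, so the numbers were taken to pair the libraries. Deviations from a group mean cancel within each group, so the negative values across numbers follow in part from the positive ones within. Only the low positive values bear on the pairing. The pairing was used only in the replicate block for compound against DMSO. The tests over 8 libraries left it out.

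The members and gene lists were chosen with earlier results of these data known. Members named are the 10 strongest in all 3 DMSO libraries, those in most lists, the 5 strongest without N-MYC, the 5 strongest with an E-box, the 3 farthest from a TSS, those beside the 1 kb limit, those on chromosome 2 around MYCN, and those at the listed genes. A member beside the limit and a gene list are not reported here. Alternatives were other region rules, distances, TSS sets, q-values, overlaps, equal peak numbers, windows, the replicate block and leaving out each library.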

Additional observations from a re-analysis of the deposited data

Results flagged for a closer look

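Among members that a list holds, the WDR5 rank relative to promoter regions went in opposite directions in the IMR-32 and compound libraries. In IMR-32 the median WDR5 percentile at distal regions was above that at promoter regions by 9.13 in replicate 1 and 9.66 in replicate 3. After the compound in CHP-134 the difference was −14.2 in replicate 1 and −5.17 in replicate 3, and replicate 2 held no member. Every IMR-32 library thus differed in sign from every compound library with a value, and the difference was not tested. The numbers of members behind these medians were 70 and 58 in IMR-32, and 92 and 12 after the compound. In the DMSO libraries of CHP-134, whose peaks chose the regions, it was −12.7, −15.7 and −14.3, so the negative sign is also there without the compound. Cell line and sequencing cannot be told apart.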

How the results depend on the processing

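The number of distal regions was 93 with regions of all 3 DMSO WDR5 libraries and ranged from 101 to 171 when 1 of these was left out (101 without replicate 1, 143 without replicate 2). The E-box share was 19.4% with regions of all 3 libraries, 15.5% within 50 bp and 37.3% within 250 bp of the summit, and 21.7% to 25.7% with 1 WDR5 library left out. The lower N-MYC share at distal regions kept its sign in all 20 alternatives. The difference was −7.10 to −9.06 points with 1 library left out and −4.79 with N-MYC summits inside the region (exact permutation p = 0.0156). The E-box difference kept its sign in all 22 alternatives, at 20.6 to 37.5 points. With 1 library left out it was 21.0 to 33.1. With the 3 DMSO N-MYC libraries alone, where p cannot go below 0.25, the differences were −8.09 for distal against promoter, 20.6 for the E-box, −3.94 for introns, −5.49 for distance, −4.41 for the N-MYC percentile and −25.8 bp for summits. The summit difference was −12.0 bp with regions of all 3 libraries, and −17.0 to −29.0 bp with 1 library left out.

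The differences by place and by distance were not stable. Leaving out 1 library gave −14.3 to 0.65 points for introns against intergenic regions and −6.53 to −1.41 points for members over 10 kb. The distance difference was −3.41 with regions of all 3 libraries, −3.53 for members over 5 kb from a TSS, −1.65 with N-MYC summits inside the region, 3.05 with TSSs of all annotated transcripts and 0.0471 with a −log10 q of at least 3. The N-MYC percentile difference was −2.33 over 5 kb (exact permutation p = 0.0391), 0.804 with all annotated TSSs, and −1.77 to −0.179 with 1 library left out.

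The compound difference in N-MYC share was 1.57 points with equal numbers of strongest peaks and −20.3 to −3.15 with 1 library left out. With the replicate block it was −14.4 (exact sign-flip p = 0.25, the smallest 3 pairs allow) and the change of the gap 3.48 (p = 0.25), so the replicate block changed no call. The block was run only for these comparisons of compound with DMSO. The causes were not tested. Peak lists without read counts limit every statement on absence.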
